A study of Mus musculus with 12 samples.

Results

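The thrombospondins are a family of 5 secreted matrix proteins, encoded in the mouse by Thbs1, Thbs2, Thbs3, Thbs4 and Comp (cartilage oligomeric matrix protein, also called thrombospondin 5). The 5 genes were taken by gene number from a table of 27179 genes counted in 12 mouse hearts, and all 5 had enough counts to be tested. Their mothers had breathed either filtered air or diesel exhaust during pregnancy, between E0.5 and E17.5, and the offspring grew up in filtered air. Surgery at 12 weeks was either sham or transverse aortic constriction (TAC), which narrows the aorta to the width of a 27 gauge needle and so loads the left ventricle with pressure. Hearts had been imaged at 11 weeks and were frozen at 15 weeks. Each combination of exposure and surgery, called here filtered air sham, filtered air TAC, diesel exhaust sham and diesel exhaust TAC, had 3 hearts. The labels name no strain, transgene or other agent, nor the litter, the sex or which 4 libraries were sequenced together in each run. Hearts were treated as independent, so the p-values measure the spread between these samples and would be too small if hearts of a group shared a litter. Replicate numbers below only name hearts.

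Thrombospondins are matricellular proteins, which act as signals and organisers of the extracellular matrix more than as its scaffold. Thrombospondin 1 and 2 (subgroup A) form trimers, bind the receptors CD36 and CD47 and restrain the growth of blood vessels. Thrombospondin 1 also activates latent TGF-beta and is released by platelets. Thrombospondin 3, 4 and COMP (subgroup B) form pentamers and lack the antiangiogenic repeats. Thrombospondin 4 is made by stressed heart and skeletal muscle, where it also acts inside the cell on the endoplasmic reticulum stress factor ATF6, while thrombospondin 3 affects integrins at the cardiomyocyte surface and COMP is best known from cartilage and tendon.

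The genes lie apart from each other in the genome. By the RefSeq annotation of GRCm38.p6, Thbs1 is at chr2:118111876-118127133 on the plus strand and Thbs2 at chr17:14665500-14694262 on the minus strand. Thbs3 is at chr3:89215180-89226841 on the plus strand, Thbs4 at chr13:92751586-92794818 on the minus strand and Comp at chr8:70373548-70382066 on the plus strand. The long noncoding RNAs LOC115489723 and Gm51533 overlap Thbs3 and Comp in the annotation and have no row of their own in the count table, so reads of either pair could not be separated.

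The stretch before the start site is shown for Thbs4, Thbs3 and Thbs2, the 3 members for which a promoter sequence was available. None was available for Thbs1 and Comp, so the 3 were not picked by their course after TAC. Thbs4 had the greatest difference between TAC and sham of the family, Thbs3 a small one and Thbs2 none that passed the test. Each is the 250 bases upstream of the gene's start in the RefSeq sequence of GRCm38.p6, written 5′ to 3′ on the strand of the gene, with the motifs found in capitals. They come from chr13:92794819-92795068, chr3:89214930-89215179 and chr17:14694263-14694512.
Thbs4: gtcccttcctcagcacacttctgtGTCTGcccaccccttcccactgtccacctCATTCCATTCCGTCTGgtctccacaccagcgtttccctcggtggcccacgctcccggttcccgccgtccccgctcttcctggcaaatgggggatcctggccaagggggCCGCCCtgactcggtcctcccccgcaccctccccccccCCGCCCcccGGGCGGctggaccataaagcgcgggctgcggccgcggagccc
Thbs3: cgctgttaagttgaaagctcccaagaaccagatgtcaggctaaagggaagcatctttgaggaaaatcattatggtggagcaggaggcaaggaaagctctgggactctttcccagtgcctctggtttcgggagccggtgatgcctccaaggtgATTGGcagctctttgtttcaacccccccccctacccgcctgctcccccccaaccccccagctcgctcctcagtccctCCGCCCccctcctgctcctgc
Thbs2: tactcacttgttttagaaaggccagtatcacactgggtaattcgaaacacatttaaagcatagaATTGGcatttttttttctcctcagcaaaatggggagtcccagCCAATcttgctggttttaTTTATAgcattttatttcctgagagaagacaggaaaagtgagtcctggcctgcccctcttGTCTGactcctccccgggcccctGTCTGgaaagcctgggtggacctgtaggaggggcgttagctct
Thbs4 had a GC content of 70.8%, Thbs3 58.8% and Thbs2 46.8%, against a median of 52.4% over 32851 mouse promoters of the same length.

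The motifs searched on both strands were the AP-1 site TGANTCA, the CCAAT box, the TATA box TATAAA, the TEAD site GGAATG, the SMAD site GTCTG, the GC box GGGCGG and the CArG box. In Thbs4 a pair of overlapping TEAD matches on the opposite strand ended next to 1 of its 2 SMAD matches, and 3 GC boxes lay closer to the start. A TEAD match was found in 12.6% of all promoters, a SMAD match in 42.2% and a GC box in 32.7%. Thbs2 had 2 CCAAT matches, 1 TATA match on the opposite strand and 2 SMAD matches, and Thbs3 had 1 CCAAT match and 1 GC box. A CCAAT match was found in 33.8% of all promoters and a TATA match in 12.4%. None of the 3 windows held the letters of an AP-1 site, found in 6.75% of promoters, or of a CArG box, found in 1.47%. These matches describe the letters only, and no factor's binding was measured.

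Libraries held 5534685 to 13265816 counts. Levels are given as CPM, counts scaled to a common library size after TMM correction, which keeps a few abundant genes from setting the scale. A count of 3 corresponds to 0.226 to 0.542 CPM depending on the library, a floor that covers counting error only. RNA of the mitochondrial genome took 18.3% to 32.4% of the counts. Within each group no library was a copy of another, since the closest pair of replicates differed by a chi-square of 10.03 per degree of freedom. Libraries of different groups were not compared in this way. The load response was present: Nppb, the gene of the natriuretic peptide BNP, rose 4.43-fold after TAC over both exposures (log2 2.15 ± 0.19 SE, adjusted p = 1.88e-06 by edgeR's quasi-likelihood test with Benjamini-Hochberg adjustment over 13626 genes). The same test gave all adjusted p-values of gene counts below unless another tool is named, with a threshold of 0.05. Ddx3y, a gene of the Y chromosome, was at 26.7 to 68.9 CPM over all 12 hearts, and Xist, expressed in females, at 0 to 2.92 CPM. By these levels every heart had a male pattern. Of 5 sex-linked genes 0 passed between TAC and sham in the average by edgeR, DESeq2 or limma-voom. At an unadjusted p under 0.05 by edgeR there were 0 in that average (21.6% of all genes). There was 1 in filtered air alone (11.1%), and 1 in the difference between the TAC responses of the exposures (2.4%).

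Thbs1, of subgroup A, was raised after TAC in both exposures. Its levels were 15.9, 32.0 and 15.4 CPM in the filtered air sham hearts and 59.4, 70.9 and 46.7 CPM in the filtered air TAC hearts. After diesel exhaust they were 14.3, 16.4 and 13.1 CPM in sham and 51.9, 42.3 and 69.0 CPM in TAC. Every TAC heart was above every sham heart, and the sham heart nearest to them was filtered air replicate 2. Thbs1 rose 2.80-fold in filtered air (log2 1.49 ± 0.26 SE, adjusted p = 0.00593 by edgeR) and 3.73-fold after diesel exhaust (log2 1.90 ± 0.27 SE, adjusted p = 2.78e-04 by edgeR). The call in filtered air was lost without sham replicate 3 (adjusted p = 0.0532 by edgeR) or without TAC replicate 2 (adjusted p = 0.0520 by edgeR). That after diesel exhaust held in each of the 12 fits that left out 1 library.

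Thbs2, the other trimer, is the member for which no comparison passed the test. Its levels were 32.3, 39.5 and 44.5 CPM in filtered air sham and 29.7, 32.2 and 26.8 CPM in filtered air TAC. After diesel exhaust they were 40.6, 32.4 and 43.1 CPM in sham and 34.5, 31.5 and 28.3 CPM in TAC. In filtered air the sham and TAC ranges were separated only by the gap between 32.3 and 32.2 CPM, and after diesel exhaust they overlapped. The difference of TAC from sham on the log2 scale was -0.39 ± 0.19 SE in filtered air (95% interval -0.78 to -0.0022, adjusted p = 0.446 by edgeR). After diesel exhaust it was -0.30 ± 0.18 SE (95% interval -0.68 to 0.083, adjusted p = 0.456 by edgeR). Both intervals leave out a rise of the size seen in Thbs1. Averaged over exposure, Thbs2 was at log2 -0.34 ± 0.13 SE (95% interval -0.62 to -0.072, adjusted p = 0.119 by edgeR). Its unadjusted p there was 0.0156 by edgeR, where 21.6% of all genes were under 0.05. The log2 value ran from -0.41 to -0.29 when single libraries were left out, and passed in 0 of these fits.

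The per kilobase ratio of Thbs1 to Thbs2 shows how the balance of the trimers stood in each heart. Levels of different genes were divided by the length of all their annotated exons, 6073 bases for Thbs1 and 7003 bases for Thbs2. The ratio was 0.634 ± 0.274 (SD, n = 3) in filtered air sham and 2.29 ± 0.264 in filtered air TAC. After diesel exhaust it was 0.447 ± 0.121 in sham and 2.03 ± 0.679 in TAC. The highest sham ratio was 0.935 and the lowest TAC ratio 1.55, so Thbs2 was the higher of the trimers in all 6 sham hearts and Thbs1 in all 6 TAC hearts. These ratios are descriptions with no test of their own.

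Thbs3, the pentamer with the lowest level per kilobase after TAC, had smaller differences. Its levels were 3.18, 3.23 and 7.46 CPM in filtered air sham and 8.57, 11.3 and 5.38 CPM in filtered air TAC. After diesel exhaust they were 4.60, 9.03 and 7.36 CPM in sham and 14.0, 11.8 and 10.8 CPM in TAC. Sham and TAC overlapped in filtered air and did not overlap after diesel exhaust. The difference was 0.88 ± 0.37 SE on the log2 scale in filtered air (adjusted p = 0.368 by edgeR) and 0.82 ± 0.36 SE after diesel exhaust (adjusted p = 0.257 by edgeR), neither past the threshold.

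Averaged over exposure, which uses all 12 hearts, Thbs3 rose 1.80-fold (log2 0.85 ± 0.26 SE, adjusted p = 0.0461 by edgeR). That call held in 3 of the 12 fits that left out 1 library, those without filtered air sham replicate 3, filtered air TAC replicate 3 or diesel exhaust sham replicate 2. It was lost when any of the other libraries was left out, with the highest adjusted p of 0.160 by edgeR without filtered air TAC replicate 2. With 22 to 193 counts per heart, Thbs3 was measured less precisely than Thbs1.

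Thbs4, the member known from stressed muscle, had the greatest difference of the family. Its levels were 2.65, 2.06 and 5.84 CPM in filtered air sham, from 14 to 36 counts, and 32.0, 97.0 and 34.8 CPM in filtered air TAC. After diesel exhaust they were 2.55, 4.51 and 5.05 CPM in sham and 78.4, 62.9 and 96.7 CPM in TAC. The lowest TAC heart stood far above the highest sham heart. Filtered air TAC replicate 2 was as high as the highest diesel exhaust TAC heart, while the other two filtered air TAC hearts lay below all 3 of the diesel exhaust TAC hearts.

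Thbs4 rose 15.9-fold in filtered air (log2 3.99 ± 0.55 SE, adjusted p = 0.00794 by edgeR) and 19.8-fold after diesel exhaust (log2 4.31 ± 0.54 SE, adjusted p = 0.00241 by edgeR). Counted from the greatest rise in log2 fold change, it ranked 26th of 13626 genes in filtered air and 16th after diesel exhaust. In filtered air the call was lost without sham replicate 1 (adjusted p = 0.0821 by edgeR) and in a fit of these 6 libraries alone (adjusted p = 0.0874 by edgeR), and without TAC replicate 2 the log2 value was 3.28 and still passed. After diesel exhaust the call held in each of the 12 fits that left out 1 library.

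Comp, the other pentamer with high levels after TAC, is a matrix protein that binds collagens and other matrix proteins. Its levels were 4.23, 1.62 and 5.03 CPM in filtered air sham and 11.0, 46.1 and 14.7 CPM in filtered air TAC. After diesel exhaust they were 6.38, 6.69 and 3.32 CPM in sham and 56.3, 29.3 and 39.3 CPM in TAC. All TAC hearts were above all sham hearts, and filtered air TAC replicate 2 again stood above the other two of its group. Comp rose 7.63-fold after diesel exhaust (log2 2.93 ± 0.60 SE, adjusted p = 0.0288 by edgeR).

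In filtered air the difference of Comp was log2 2.71 ± 0.62 SE and did not pass the threshold (adjusted p = 0.0995 by edgeR). It passed by DESeq2 (adjusted p = 0.00181) and in edgeR without TAC replicate 1 (adjusted p = 0.0315), and without TAC replicate 2 the log2 value was 1.82. The call after diesel exhaust was lost without filtered air sham replicate 1, any of the 3 diesel exhaust sham hearts, or diesel exhaust TAC replicate 1 or 3, with the highest adjusted p of 0.115 by edgeR without diesel exhaust sham replicate 1. It was also lost with no filter on low counts (adjusted p = 0.0530 by edgeR).

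**Figure D1:**
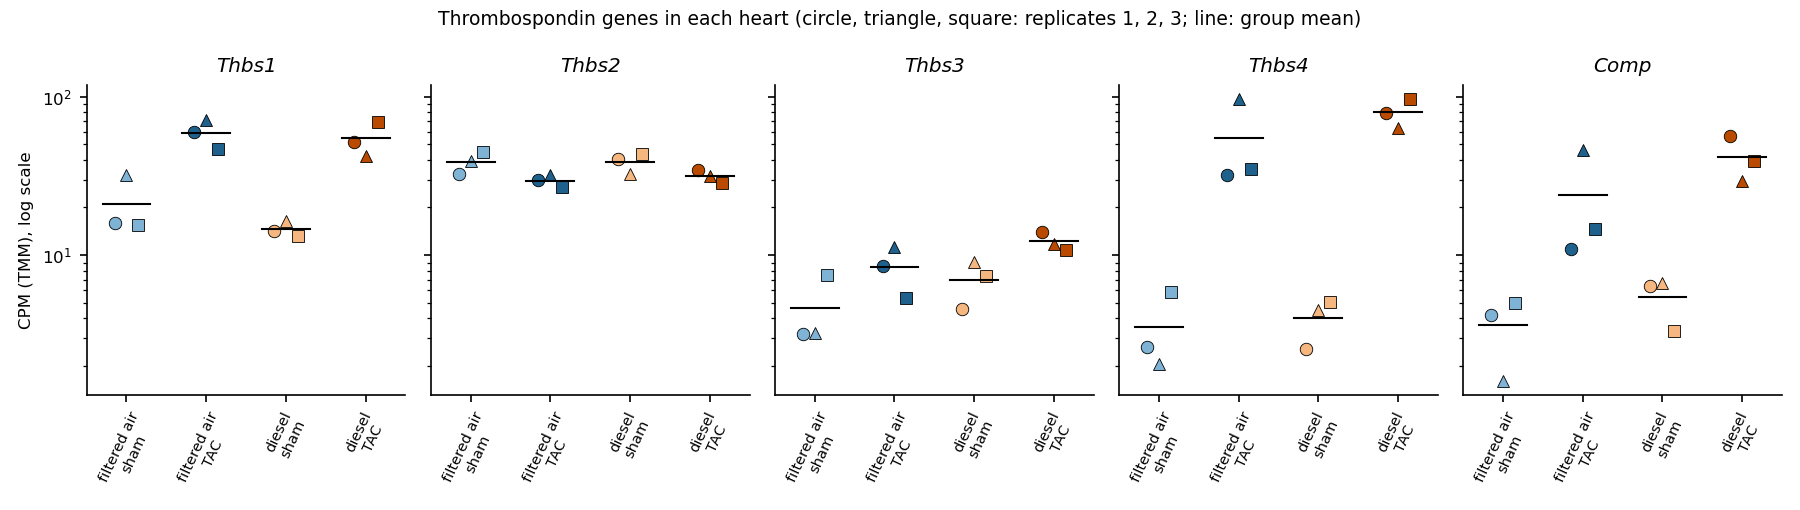
Level of each thrombospondin gene in every heart, in CPM with TMM factors on a log scale, by exposure and surgery. Circles, triangles and squares are replicates 1, 2 and 3, and the line is the group mean. Thbs1, Thbs4 and Comp have no overlap between sham and TAC hearts, Thbs2 lies between 26.8 and 44.5 CPM throughout, and filtered air TAC replicate 2 stands above its group in Thbs4 (97.0 CPM) and Comp (46.1 CPM).

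Counted over the family, 2 of the 5 members rose in filtered air and none fell, against 0.609% of all genes tested that rose and 0.22% that fell. After diesel exhaust 3 of the 5 rose and none fell, against 1.75% and 1.49% of all genes. Averaged over exposure 4 of the 5 rose and none fell, against 4.1% and 3.91% of all genes. In that average Thbs1 was at log2 1.69 ± 0.19 SE, Comp at 2.82 ± 0.43 SE and Thbs4 at 4.15 ± 0.38 SE, with adjusted p of 7.66e-06, 0.00328 and 1.37e-04 by edgeR. These 3 calls held in all 12 fits that left out 1 library. The median log2 fold change of the 5 members was 1.49 in filtered air, 1.90 after diesel exhaust and 1.69 in the average, where the median of all genes was 0.0051, 0.00061 and 0.0039. The members were chosen as a family with earlier results of these hearts known, so these counts describe the family and compare it with no other list. In whole-heart RNA, more cells of a type and more RNA per cell cannot be told apart.

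In all 5 members both sham means lay on one side of both TAC means, below them in 4 genes and above them in Thbs2. For Thbs4 and Comp the group means ran from filtered air sham through diesel exhaust sham and filtered air TAC to diesel exhaust TAC. For Thbs4 they were 3.51 ± 2.04, 4.04 ± 1.31, 54.6 ± 36.7 and 79.3 ± 16.9 CPM (SD, n = 3), and for Comp 3.63 ± 1.79, 5.46 ± 1.86, 23.9 ± 19.3 and 41.6 ± 13.6 CPM. For Thbs1 the lowest group was diesel exhaust sham at 14.6 ± 1.65 CPM, followed by filtered air sham at 21.1 ± 9.45, diesel exhaust TAC at 54.4 ± 13.5 and filtered air TAC at 59.0 ± 12.1 CPM. In these 3 genes only the step from sham to TAC separated neighbouring groups without overlap. Thbs2, from 29.5 ± 2.72 CPM in filtered air TAC to 38.7 ± 6.12 CPM in filtered air sham, and Thbs3, from 4.62 ± 2.46 CPM in filtered air sham to 12.2 ± 1.62 CPM in diesel exhaust TAC, had overlap at every step.

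Diesel exhaust before birth asked whether the exposure itself moved these genes, without load or with it. In sham hearts 0 of the 5 members passed the threshold by edgeR, DESeq2 or limma-voom, where 0% of all genes tested were called. At an unadjusted p under 0.05 there were 0 of the 5 by edgeR, against 3.69% of all genes. The log2 difference of diesel exhaust from filtered air was -0.53 for Thbs1 (95% interval -1.09 to 0.031) and 0.0030 for Thbs2 (95% interval -0.38 to 0.39). It was 0.61 for Thbs3 (95% interval -0.18 to 1.399), 0.22 for Thbs4 (95% interval -1.13 to 1.57) and 0.58 for Comp (95% interval -0.89 to 2.06). Single hearts moved these values. Without filtered air sham replicate 2, which had 32.0 CPM of Thbs1, the difference was -0.088 for Thbs1, -0.019 for Thbs4 and 0.26 for Comp. Without filtered air sham replicate 3 it was 1.12 for Thbs3 (unadjusted p = 0.0109 by edgeR, adjusted p = 1.00) and 0.75 for Thbs4.

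In TAC hearts 0 of the 5 members passed between the exposures by edgeR, DESeq2 or limma-voom, and 0% of all genes tested were called by edgeR. At an unadjusted p under 0.05 there were 0 by edgeR, against 1.87% of all genes. By limma-voom Comp was at log2 1.07 (unadjusted p = 0.0100) and Thbs4 at log2 0.72 (unadjusted p = 0.0290), each with an adjusted p of at least 0.999. The share of all genes under 0.05 by limma-voom was not counted, so these 2 values have no background beside them. The log2 difference was -0.12 for Thbs1 (95% interval -0.64 to 0.40), 0.091 for Thbs2 (95% interval -0.29 to 0.48) and 0.54 for Thbs3 (95% interval -0.19 to 1.27). It was 0.54 for Thbs4 (95% interval -0.44 to 1.52) and 0.80 for Comp (95% interval -0.38 to 1.99). Without filtered air TAC replicate 2, the difference was 1.25 for Thbs4 and 1.70 for Comp, still not past the threshold (adjusted p = 0.780 and 0.409 by edgeR).

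The interaction is the difference between the TAC responses of the exposures. It passed for 0 of the 5 members by edgeR, DESeq2 or limma-voom, with 0% of all genes called by edgeR. It had an unadjusted p under 0.05 by edgeR for 0 of the 5, against 2.4% of all genes. It was 0.41 for Thbs1 on the log2 scale (95% interval -0.35 to 1.18), 0.088 for Thbs2 (95% interval -0.46 to 0.63) and -0.067 for Thbs3 (95% interval -1.13 to 1.00). For Thbs4 it was 0.32 (95% interval -1.36 to 1.99) and for Comp 0.22 (95% interval -1.69 to 2.13). When single libraries were left out it ran from -0.028 to 0.59 for Thbs1, from -0.028 to 0.20 for Thbs2 and from -0.58 to 0.20 for Thbs3. For Thbs4 it ran from -0.21 to 1.03 and for Comp from -0.14 to 1.12, both highest without filtered air TAC replicate 2 (unadjusted p = 0.0396 and 0.0498 by edgeR, adjusted p = 1.00 for each). For the pentamers Thbs4 and Comp these hearts therefore leave room for responses that differ by more than 2-fold in either direction. That Comp passed after diesel exhaust and not in filtered air does not amount to a difference between the exposures, which the interaction tests.

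**Figure D2:**
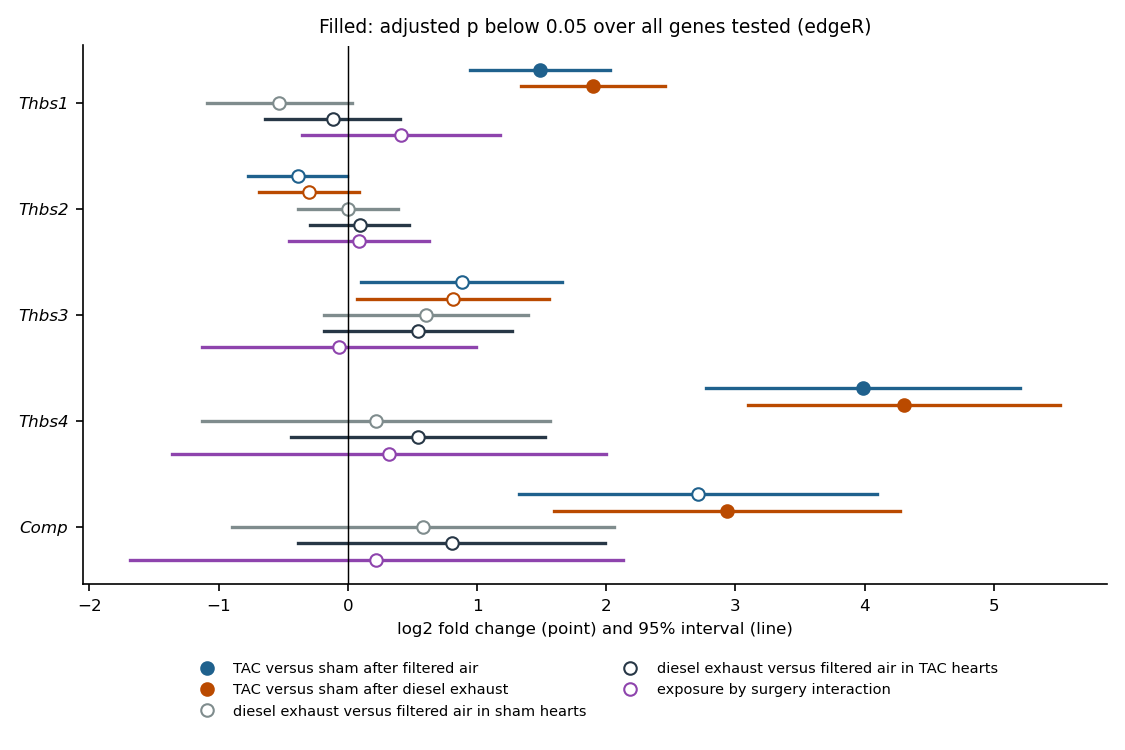
Log2 fold change of each thrombospondin gene (x axis) in 5 comparisons, with 95% intervals as lines, from edgeR. Filled points passed an adjusted p of 0.05, which only TAC against sham did, for Thbs1 and Thbs4 in both exposures and for Comp after diesel exhaust. The exposure and interaction intervals of all 5 genes include 0 and are widest for Thbs4 and Comp.

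The make-up of the family differed between sham and TAC hearts. The summed level of the 5 genes, each divided by its exon length (4823 bases for Thbs3, 3289 for Thbs4 and 2967 for Comp), was 12.3 ± 1.94 CPM per kilobase (SD, n = 3) in filtered air sham and 12.5 ± 0.399 in diesel exhaust sham. It was 40.3 ± 20.2 in filtered air TAC, with 63.7 in replicate 2, and 54.1 ± 9.73 in diesel exhaust TAC. All TAC hearts were above all sham hearts. In sham hearts Thbs2 held the greatest mean share, 45.2% ± 0.798 in filtered air and 44.5% ± 7.31 after diesel exhaust, and in TAC hearts it held 11.8% ± 3.96 and 8.50% ± 1.88.

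Thbs4 took that place after TAC. Its share was 8.54% ± 3.97 in filtered air sham and 39.1% ± 6.64 in filtered air TAC, and 9.81% ± 3.01 and 44.5% ± 4.24 after diesel exhaust. Comp held 10.2% ± 5.22 and 18.2% ± 5.92 in sham and TAC of filtered air, and 14.8% ± 5.07 and 25.7% ± 5.54 after diesel exhaust. The share of Thbs1 differed little between sham and TAC, 28.5% ± 11.8 and 26.4% ± 7.61 in filtered air and 19.3% ± 1.88 and 16.5% ± 2.22 after diesel exhaust, since its own level differed about as much as the sum did. Thbs3 held 7.63% ± 3.09 and 4.57% ± 1.32 in filtered air and 11.6% ± 3.38 and 4.78% ± 0.998 after diesel exhaust.

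**Figure D3:**
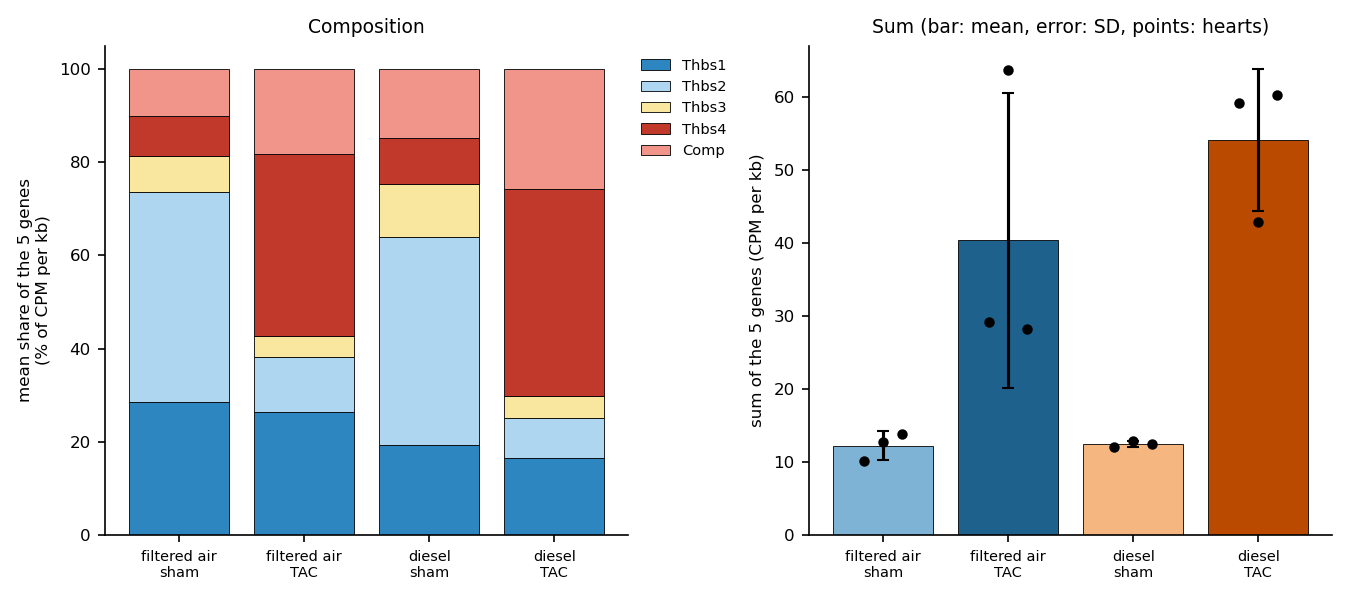
Left, mean share of each gene in the summed thrombospondin level (% of CPM per kilobase of exon) in each group. Right, that sum in CPM per kilobase, with bars for the mean, lines for the SD and points for the 3 hearts. Thbs2 holds 45.2% and 44.5% in the sham groups and 11.8% and 8.50% after TAC, where Thbs4 holds 39.1% and 44.5%.

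Receptors that bind thrombospondins or take them up were read beside the ligands. For this list and those that follow, 4.1% of all genes tested rose and 3.91% fell in the average. The shares were 0.609% and 0.22% in filtered air, and 1.75% and 1.49% after diesel exhaust. Averaged over exposure, 5 of 17 tested genes rose after TAC and none fell, with a median log2 fold change of 0.35. In filtered air alone 0 of the 17 passed by edgeR, 6 at an unadjusted p under 0.05 (a share of all genes of 11.1% there, and of 21.6% in the average), 3 by DESeq2 and 0 by limma-voom, and after diesel exhaust 3 rose by edgeR. Lrp1, the uptake receptor that clears thrombospondins together with bound proteases, rose 1.77-fold (log2 0.82 ± 0.12 SE, adjusted p = 2.25e-04 by edgeR). Itga9 and Itgav, integrin subunits, rose 1.83-fold and 1.45-fold (adjusted p = 4.18e-04 and 0.00918 by edgeR). Lrp8, a relative of Lrp1, was at or near the floor in sham hearts (0.446 ± 0.637 and 0.911 ± 1.10 CPM in filtered air and diesel exhaust) and at 3.17 ± 0.888 and 6.34 ± 2.73 CPM in TAC hearts, with an adjusted p of 0.00595 by edgeR and no fold given. Cd47 and Cd36, the receptors of thrombospondin 1, were at log2 0.26 ± 0.17 SE and -0.19 ± 0.13 SE and did not pass.

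Genes of the TGF-beta system, whose latent ligand thrombospondin 1 activates, were mostly higher after TAC. Averaged over exposure 6 of 9 rose after TAC and none fell, with a median of 0.52. When single libraries were left out, 4 to 6 rose and 0 to 1 fell. By limma-voom 5 rose and none fell, and by DESeq2 6 rose and 1 fell. In filtered air alone 0 of the 9 passed by edgeR, 4 at an unadjusted p under 0.05 (11.1% of all genes), 1 by DESeq2 and 1 by limma-voom, and after diesel exhaust 3 rose by edgeR. Ccn2, which TGF-beta induces, rose 3.74-fold (adjusted p = 0.00208 by edgeR). The ligand genes Tgfb2 and Tgfb3 rose 2.23-fold and 2.13-fold (adjusted p = 0.00111 and 0.00139 by edgeR). Tgfbr2, a receptor of these ligands, rose 1.39-fold (adjusted p = 0.0123 by edgeR). Tgfb1 was at log2 0.57 ± 0.21 SE and did not pass (adjusted p = 0.111 by edgeR).

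ATF6 and chaperones of the endoplasmic reticulum, the compartment in which thrombospondin 4 acts inside the cell, had some members lowered after TAC and none raised. Averaged over exposure 0 of 17 rose and 4 fell, with a median of -0.21. Hspa5, the chaperone BiP, was at 506 ± 105 and 328 ± 36.6 CPM in filtered air sham and TAC and at 450 ± 28.4 and 291 ± 29.2 CPM after diesel exhaust. It fell by 0.63 on the log2 scale (SE 0.12, adjusted p = 0.00238 by edgeR), and Pdia6, a disulfide isomerase, fell by 0.47 (adjusted p = 0.00979 by edgeR). Hyou1 and Herpud1 fell by 0.54 and 0.56 (adjusted p = 0.0149 and 0.0177 by edgeR). The latter pair lost the call without filtered air TAC replicate 2, where 2 of 17 fell. Herpud1 also lost it without filtered air sham replicate 2 or diesel exhaust TAC replicate 3 (adjusted p = 0.0554 and 0.0623 by edgeR), and Hyou1 without filtered air sham replicate 1 (adjusted p = 0.0526 by edgeR). In filtered air alone 0 passed by edgeR, 4 at an unadjusted p under 0.05 (11.1% of all genes), 1 by DESeq2 and 0 by limma-voom, and after diesel exhaust 1 fell by edgeR. Atf6 itself was at log2 0.21 ± 0.11 SE and did not pass. RNA levels do not report the activity of the ATF6 protein.

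Matrix proteins and growth factors that bind thrombospondins had 5 of 9 genes raised in the average and none lowered, with a median of 1.44. In filtered air 2 were raised and after diesel exhaust 5. Of all genes 4.1% rose in the average, 0.609% in filtered air and 1.75% after diesel exhaust. Fn1 (fibronectin) rose 3.36-fold, Col1a1 and Col1a2 (collagen I) 3.15-fold and 2.71-fold, and the small proteoglycan gene Dcn 1.80-fold, with adjusted p between 2.11e-07 for Fn1 and 7.68e-04 for Col1a2 by edgeR. Vegfa, the angiogenic factor that thrombospondin 1 binds, was at log2 -0.0065 ± 0.15 SE.

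Of 6 proteases that cleave thrombospondins or are bound by them, 3 rose and 1 fell in the average, with a median of 1.08. Mmp2, a gelatinase bound by thrombospondin 2, rose 2.61-fold (adjusted p = 3.08e-07 by edgeR), and Adamts1, which cleaves thrombospondin 1 and 2, rose 2.01-fold (adjusted p = 0.00484 by edgeR). The COMP-cleaving proteases went different ways. Adamts7 was at 28.6 ± 5.98 and 13.1 ± 4.50 CPM in filtered air sham and TAC and at 30.7 ± 5.14 and 12.6 ± 1.20 CPM after diesel exhaust, and fell by 1.20 on the log2 scale (SE 0.17, adjusted p = 1.35e-04 by edgeR). Adamts12 rose 2.24-fold (adjusted p = 0.0210 by edgeR), a call lost without filtered air sham replicate 1, filtered air TAC replicate 1, diesel exhaust sham replicate 3 or diesel exhaust TAC replicate 3. In filtered air 2 of the 6 rose and 1 fell by edgeR, where DESeq2 called 4 and limma-voom 1, and after diesel exhaust 1 rose and 1 fell.

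**Figure D4:**
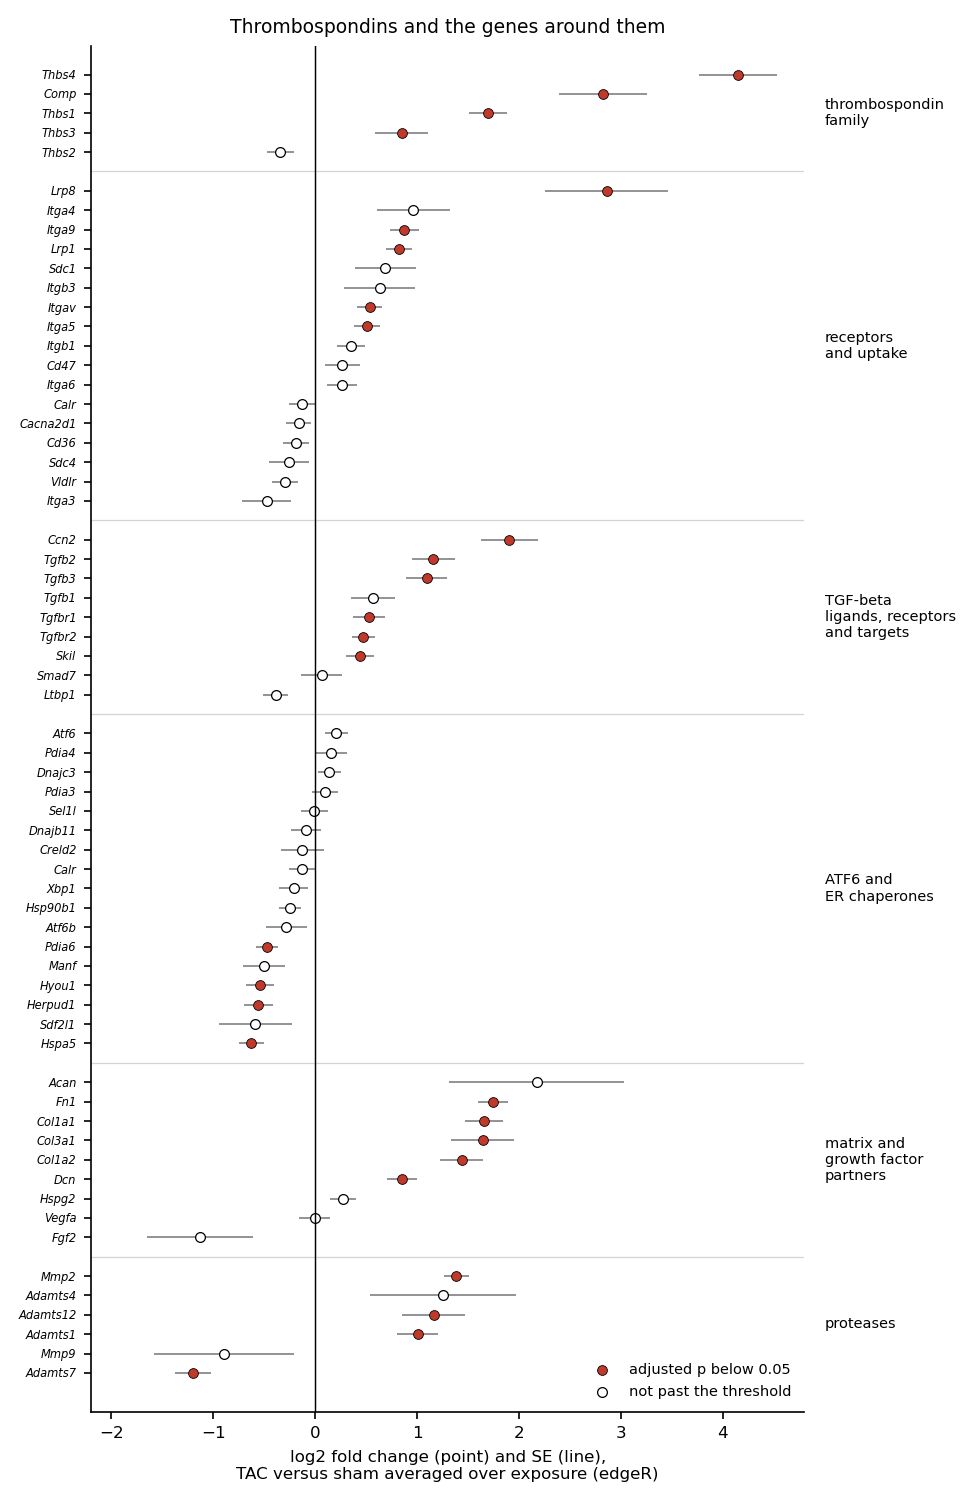
Log2 fold change after TAC averaged over exposure (x axis, with the SE as a line) for the thrombospondins and for tested genes of 5 lists around them, from edgeR. Filled points passed an adjusted p of 0.05. Thbs4, Comp and Lrp8 lie furthest to the right, and the 4 filled points of the ATF6 and endoplasmic reticulum (ER) list, like Adamts7, lie left of 0.

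Markers of the cell types that could supply these transcripts were read in the same fit, averaged over exposure. In that average 4.1% of all genes tested rose and 3.91% fell. All 5 markers of activated fibroblasts rose, and their summed level was 57.8 to 77.6 CPM in filtered air sham, 378 to 856 in filtered air TAC, 60.0 to 65.6 in diesel exhaust sham and 732 to 1036 in diesel exhaust TAC. Filtered air TAC replicate 2, the heart with the most Thbs4 and Comp of its group, had the sum of 856. In diesel exhaust TAC the sum of 1036 was that of replicate 3, which had the most Thbs4 of its group. Comp was highest there in replicate 1, with a sum of 885. Of 8 general fibroblast markers 4 rose and none fell, and 3 to 4 rose when single libraries were left out. The call of Ddr2 (adjusted p = 0.0466 by edgeR) held only without filtered air TAC replicate 1 or diesel exhaust sham replicate 2 or 3. Of 9 markers of tendon, cartilage and valve, tissues known for COMP, 6 were tested and 3 rose (Fmod, Cilp2 and Sox9). The call of Sox9 was lost without filtered air TAC replicate 2, diesel exhaust sham replicate 1 or diesel exhaust TAC replicate 3 (adjusted p = 0.0598, 0.0513 and 0.0733 by edgeR). When single libraries were left out, 2 to 4 of these markers rose, in fits that tested 6 or 7 of them. Their sum was 7.78 to 11.8 CPM in filtered air sham, 13.0 to 43.2 in filtered air TAC with the highest in replicate 2, 6.89 to 8.80 in diesel exhaust sham and 23.9 to 36.6 in diesel exhaust TAC. The part of these cells in the levels of Thbs4 and Comp was not tested.

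Platelets, the classic store of thrombospondin 1, gave few counts. Of 8 platelet markers 3 were tested and 0 passed by edgeR in the average, 1 at an unadjusted p under 0.05 (21.6% of all genes) and 0 by DESeq2 or limma-voom. Their sum was 14.3 to 16.1 CPM in filtered air sham, 16.0 to 22.3 in filtered air TAC, 11.3 to 20.9 in diesel exhaust sham and 15.5 to 25.2 in diesel exhaust TAC, with overlap between sham and TAC. Gp6 and Treml1 were at 0 in all hearts of filtered air TAC and of both diesel exhaust groups. The part of platelet RNA in the level of Thbs1 was not tested.

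Of 7 smooth muscle markers 2 fell, Acta2 and Smtn, where 3.91% of all genes fell and 4.1% rose. Only 1 of them kept its call without filtered air sham replicate 2, filtered air TAC replicate 2 or any heart exposed to diesel exhaust. Of 7 ventricular cardiomyocyte markers 4 fell, and 1 fell without filtered air sham replicate 1 and 2 without filtered air TAC replicate 2. Their summed level was 52454 to 71703 CPM in filtered air sham and 34978 to 58777 CPM in filtered air TAC, and 57493 to 68121 and 37979 to 43005 CPM after diesel exhaust, so these markers were abundant in all 12 libraries, as the labelled tissue would have them. Of 5 pericyte markers Pdgfrb and Cspg4 rose and Abcc9 fell, with the call of Cspg4 held only without filtered air sham replicate 2, diesel exhaust sham replicate 2 or diesel exhaust TAC replicate 1. Of 7 macrophage markers 1 rose, Csf1r, and 4 did without diesel exhaust sham replicate 2. Of 7 endothelial markers 0 passed by edgeR in the average, 2 at an unadjusted p under 0.05 (21.6% of all genes), 1 by DESeq2 and 0 by limma-voom. Of 3 tested skeletal muscle markers 0 passed by any of these tools and 1 had an unadjusted p under 0.05, and of 3 tested atrial markers 0 did either.

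Genes with the most similar pattern over the 12 libraries were looked up for each member among 13262 other genes with a mean of at least 1 CPM. The measure was Pearson's r of log2 CPM, given as a description since the sham and TAC hearts form clusters. For Thbs4 they were Ltbp2 (r = 0.98), Cilp (0.98) and Prelp (0.98), and for Comp Fibin (0.97), Golim4 (0.97) and Ccdc80 (0.96). For Thbs1 they were Rab31 (0.96), Emp1 (0.96) and Nppa (0.95). Thbs2 was closest to Klf12 (0.87), Rgs2 (0.87) and Grpel1 (0.85), and Thbs3 to Anxa8 (0.93), Ms4a7 (0.89) and Sntb1 (0.89). After group means were taken out, the r of these genes ran from 0.63 for Cilp with Thbs4 to 0.90 for Anxa8 with Thbs3. The genes were picked by r over the same libraries, so these values are not independent of that choice.

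Within the 6 TAC hearts the level of each member was set against that of Nppb, a marker of wall stress, and no relation passed. Over 5 relations, each tested by an exact permutation test (two-sided), r ran from -0.32 for Thbs2 to 0.55 for Thbs4. For Thbs4 the exact permutation p was 0.276 (adjusted 0.693), Spearman's rho was 0.43 (exact permutation p = 0.419, adjusted 1.0), and r was 0.90 without the 2 hearts farthest from the median Nppb. For Comp r was 0.29 (exact permutation p = 0.554, adjusted 0.693), rho -0.029 (exact permutation p = 1.0, adjusted 1.0), and r 0.94 without those 2 hearts. For Thbs1 r was 0.35 (exact permutation p = 0.490, adjusted 0.693) and rho 0.14, for Thbs2 the p was 0.531 (exact permutation, adjusted 0.693) and rho -0.37, and for Thbs3 r was 0.11 (exact permutation p = 0.840, adjusted 0.840) and rho -0.086. Without those 2 hearts r was -0.070 for Thbs1, 0.62 for Thbs2 and 0.61 for Thbs3. Those 2 hearts were diesel exhaust TAC replicates 1 and 3, with 268 and 563 CPM of Nppb. The values without them rest on the 3 filtered air TAC hearts and diesel exhaust TAC replicate 2 alone, and were not tested. The exposures had too few TAC hearts for a value each.

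Of the tested genes nearest to the thrombospondins, Smoc2 was the one that passed. Smoc2, a matrix protein gene, is the nearest annotated gene downstream of Thbs2 in the count table, at a distance of 260709 bases. It rose 1.51-fold in the average (log2 0.60 ± 0.15 SE, adjusted p = 0.0161 by edgeR), while Thbs2 itself did not pass. Mtx1 beside Thbs3 was at log2 -0.093 ± 0.21 SE, and Serinc5 and Mtx3 on either side of Thbs4 were at -0.15 ± 0.17 SE and -0.21 ± 0.19 SE. Upf1 and Crtc1 around Comp were at -0.21 ± 0.14 SE and -0.18 ± 0.25 SE, none of them past the threshold. Fsip1, Wdr27, Mir92b and 4930412B13Rik, also neighbours, were listed at 0 in every library.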

How the data were processed

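RNA of 12 hearts was sequenced on Ion PI chips after ribosomal RNA depletion. Raw counts for each Entrez gene number were deposited. The authors trimmed reads with cutadapt 1.6, aligned them to mm10 with Subread 1.4.2 and counted with featureCounts, per the submitters' processing notes. For the strand setting and for reads mapping to several places nothing is stated in these notes.

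Symbols came from RefSeq (25275 genes) and GENCODE M21 (18), and 1886 genes had none. In R 4.3.3, edgeR 4.0.16 (TMM, filterByExpr with a count minimum of 10, robust quasi-likelihood fit of 4 group means over all 12 libraries, 8 residual degrees of freedom) tested 13626 genes, with p-values adjusted by Benjamini-Hochberg within each comparison. SE are derived from the fold change and its F value. Total counts of 5534685 to 13265816 set the precision. The script was tested on simulated data with 200 changed genes. Alternatives were DESeq2 1.42.0, its size factors, limma-voom (limma 3.58.1), no filter, only the groups compared, each library left out, and mitochondrially encoded genes left out. The latter were taken by symbol or by chromosome MT, since RefSeq symbols lack the planned prefix.

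The members and the gene lists were chosen with earlier results of these data known. Named genes are the members, Nppb, up to 4 genes of each list with the smallest p in the average of both exposures, the 3 most similar genes of each member and their neighbours. Cd36, Cd47, Tgfb1, Atf6 and Vegfa are named besides as known partners, with values seen. A planned list gene is not reported here. Promoters of 3 members were matched in a RefSeq table, which had no entry for Thbs1 and Comp.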

Additional observations from a re-analysis of the deposited data

How the results depend on the processing

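No paired analysis was possible because the replicate numbers follow accession order and only name the hearts. The number of members past the threshold in filtered air was 2 in the reported fit, 1 when only the libraries of the groups compared were fitted, and 1 to 3 when single libraries were left out. By DESeq2 Comp passed there besides. After diesel exhaust the number was 3, and 1 lower where Comp lost its call, which held in 6 of the 12 fits without single libraries. Averaged over exposure it was 4, and 1 lower where Thbs3 lost its call, which held in 3 of those 12 fits. Between the exposures and for the interaction it was 0 under every alternative run. Over all genes, the 113 calls of TAC against sham in filtered air became 258 by DESeq2, 74 by limma-voom and 247 with no filter on low counts, and 39 to 143 when single libraries were left out. The 442 calls after diesel exhaust became 676 by DESeq2 and 188 to 530 without single libraries, and the 1091 calls averaged over exposure became 631 to 1213 in those fits. Diesel exhaust against filtered air in TAC hearts and the interaction each gave 1 gene by DESeq2 and 1 with no filter, and 0 otherwise. No log2 value of a member that passed the test changed sign. With lengths of the longest coding transcript, a setting added after the data were seen, the share of Thbs3 in TAC hearts was 6.24% in filtered air and 6.46% after diesel exhaust, that of Thbs1 in diesel exhaust sham 16.9% and that of Thbs2 in filtered air sham 46.2%. At this depth Thbs3, Thbs4 and Comp in sham hearts rest on 11 to 54 counts per heart, which limits comparisons between exposures in sham hearts. The causes of these changes were not tested.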
